A study of Mus musculus with 13 samples.

Results

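The subject is the transcriptome of wild-type male mouse germ cells at E14.5, a stage counted in days of embryonic development, described from 3 libraries. The libraries were taken by genotype: they are the samples labelled WT that have a column in the deposited count table, 3 of the 12 libraries in that table. The wider study concerns TET1, an enzyme that oxidises methylated cytosine in DNA, and it sequenced such cells from 4 Tet1 genotypes, of which only WT is described here. The cells were male primordial germ cells, collected by cell sorting on an Oct4-GFP reporter, in which green fluorescent protein follows the activity of Pou5f1 (also called Oct4). Each WT library was made from 5000 sorted cells by oligo-dT capture of mRNA from total RNA. The wild-type animals therefore also carried the reporter, the sort can only retain cells in which it is active, and the capture step recovers polyadenylated RNA. The labels give no strain and do not say whether WT 1, WT 2 and WT 3 came from separate embryos or pools, so the spread between them may be technical.

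Primordial germ cells are the embryonic precursors of eggs and sperm. They erase most of their DNA methylation, including the marks at imprinted genes, while they migrate to and settle in the gonad. In a fetal testis the surrounding Sertoli cells direct them to the male path, on which they stop dividing, turn down pluripotency genes, hold back meiosis and later rebuild DNA methylation with the help of small piwi-interacting RNAs. E14.5 falls within the period in which male germ cells enter that arrest. Male germ cells at this age are recognised by germline RNA-binding proteins such as DAZL and DDX4 together with remaining pluripotency factors such as POU5F1.

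The 3 libraries had similar totals but did not hold the same number of genes. Total counts were 20213496 in WT 1, 22734178 in WT 2 and 22858834 in WT 3. At least 1 count was found for 14780 symbols in WT 1, for 14843 in WT 2 and for 11529 in WT 3. Scaled down to the lowest total, the numbers were 14780, 14819 and 11518, so WT 3 stood apart at an equal total of counts. Levels are given as CPM, counts scaled to a common library total (counts per 1000000) after TMM scaling over these 3 libraries, and an order of genes by CPM, also within a list, is an order by reads, which longer transcripts raise. Transcript levels of different genes are set against each other as CPM per kilobase of exon (CPM per kb). Exon length joins the exons of all annotated transcripts of a gene, so genes with many annotated transcripts can come out lower. A gene is called on where it reached 1 CPM in all 3 libraries, off where it stayed below 1 CPM in all 3, and split otherwise. A count of 0 allows a level of up to 0.147 CPM in WT 1, 0.133 CPM in WT 2 and 0.131 CPM in WT 3 (3 counts of the total, counting error only). No test was run on levels, because a single group holds no contrast.

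Of the 35976 symbols in the table, 10286 (28.6%) were on, 21555 (59.9%) were off and 4135 (11.5%) were split. Among 21295 symbols that RefSeq lists as protein-coding, 9968 (46.8%) were on, 8484 (39.8%) were off and 2843 (13.4%) were split, and these shares are the background for the gene lists that follow. A total of 19305 symbols had no count in any library. The genes that were on had a median level of 43.5 CPM, with quartiles of 16.7 and 107 CPM, or 9.76 CPM per kb for the 10147 of them with a known exon length. Without WT 3, 11592 symbols were on. Of 10114 long non-coding RNA symbols, 202 (2.0%) were on, and they held 0.392% to 0.395% of the counts of a library.

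Transcripts for protein synthesis, protein folding and mitochondrial respiration led the transcriptome, and a germline gene, Dazl, was among the 25 with the highest CPM. Hsp90ab1, a cytosolic HSP90 chaperone, was at 5866 CPM in WT 1, 5965 CPM in WT 2 and 5878 CPM in WT 3. COX1, the mitochondrially encoded catalytic subunit of cytochrome c oxidase, was at 4143, 5128 and 5918 CPM. In WT 3 it had more reads than Hsp90ab1 and in the others fewer, so the order of these neighbours by CPM did not hold beyond their spread. By mean CPM they were followed by the elongation factors Eef1a1 (4160, 4348 and 4570 CPM) and Eef2 (3635, 3389 and 3434 CPM) and by Ncl, which encodes the nucleolar protein nucleolin (3019, 2923 and 3117 CPM). Among the rest of these 25 were further translation genes (Rpl4, Rps3, Rpl8, Rack1), folding genes (Hsp90aa1, Hspa8, Cct2), the mitochondrially encoded CYTB, ND5 and ND1, and Atp5b of the ATP synthase. Others were the RNA-binding factors Hnrnpu and Hnrnpa2b1, the nucleolar gene Npm1, the cytoskeletal genes Sptan1 and Tubb5, the glycolytic gene Pkm and Trim28. Trim28, whose protein silences retroelements together with zinc finger proteins, was at 2211, 2078 and 1875 CPM.

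Ordered by CPM per kb, 13 of these 25 genes stayed among the first 25. This order lowers the advantage of long transcripts but depends on the joined exon lengths. COX1 led at 3277 ± 575 CPM per kb (SD, n = 3), followed by Rplp1, a protein of the ribosomal stalk, at 2764 ± 394 CPM per kb. Dppa3, a germ cell and oocyte gene whose protein restrains DNA methylation, was the highest germline gene on this scale and ranked 14. Its levels were 893, 986 and 633 CPM per kb. The counts were spread over many genes: the 10 genes with the highest mean CPM held 3.30% of the counts in WT 1, 3.37% in WT 2 and 3.54% in WT 3. The first 100 held 14.4% in WT 1 and WT 2 and 14.7% in WT 3, and the first 500 held 34.0% ± 0.416 (SD, n = 3). Most counts, 61.2% in WT 1, 61.9% in WT 2 and 62.3% in WT 3, lay in the 2699 genes of 100 to 1000 CPM.

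The libraries carried the germ cell markers of their label at high and similar levels. Dazl, whose protein binds germline mRNAs and promotes their translation, was at 1716.5 CPM in WT 1, 1569.5 CPM in WT 2 and 1896.8 CPM in WT 3. It ranked 22 by mean CPM, and 22, 26 and 18 in the separate libraries. Ddx4, an RNA helicase of germline granules, was at 961, 816 and 768 CPM and ranked 93. Pou5f1, the pluripotency factor that drives the sorted reporter, was at 301, 292 and 340 CPM and ranked 576. Its presence is no separate sign of identity, because the sort selected for activity of that reporter. Tet1 was at 584, 576 and 636 CPM and ranked 176. None of the 4 differed by more than 1.5-fold between any libraries, and WT 3 was highest for Dazl, Pou5f1 and Tet1 and lowest for Ddx4. Per length the order was Dazl (452 ± 42.9 CPM per kb), Ddx4 (281 ± 33.3), Pou5f1 (138 ± 11.3) and Tet1 (38.7 ± 2.11), each as mean and SD over 3 libraries. This order was the same in each of the 3 libraries, so each step exceeded the spread.

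**Figure D1:**
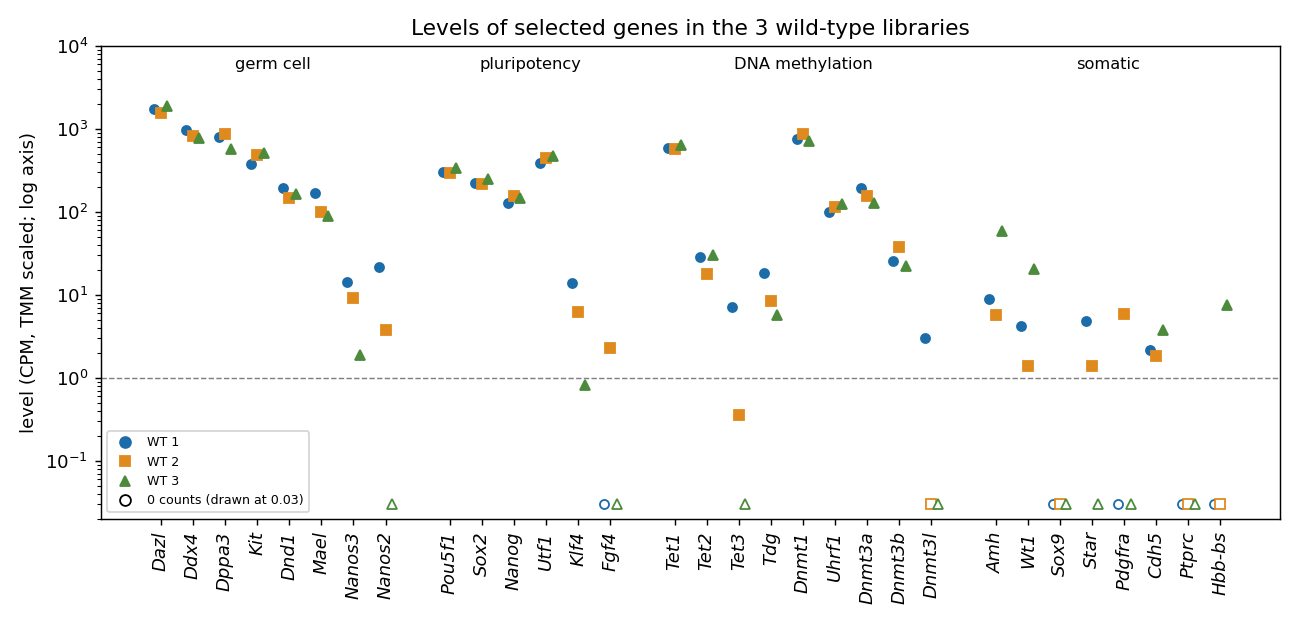
Levels of selected germ cell, pluripotency, DNA methylation and somatic genes in CPM (log axis), with a point for each of the 3 wild-type libraries, a dashed line at 1 CPM and open symbols for 0 counts. Dazl, Ddx4, Pou5f1 and Tet1 lie close together in the 3 libraries, whereas Nanos2, Klf4, Tet3 and Amh differ widely between them.

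Of 19 core germ cell genes found in the table, 18 were on and 1, Figla, an oocyte transcription factor gene, had 0 counts in each library. This is 94.7%, against 46.8% of all protein-coding symbols. Their summed level was 5414, 5269 and 5380 CPM. Kit, the receptor for the survival signal KIT ligand, was at 374, 480 and 510 CPM. Dppa3 was at 797, 880 and 565 CPM, lowest in WT 3. By mean CPM the lowest member that was on was Nanos3, which encodes an RNA-binding protein needed for germ cell survival, at 14.4, 9.16 and 1.88 CPM. The list of germline RNA regulators had 25 of 26 members on, among them Ddx6 (323, 321 and 444 CPM), Celf1 (344, 391 and 278 CPM) and Lin28a (391, 330 and 288 CPM), whose protein blocks maturation of the let-7 microRNA. Nanos2 was the split member. Nanos3 was chosen after its values were seen.

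The genes of the male path were mostly on, while several of its members were detected in some libraries and not in others. Of 13 male fate genes, 9 were on, Spocd1 was off and Dnmt3l, Nanos2 and Zbtb16 were split. Lefty2, a secreted inhibitor of Nodal signalling, was at 520, 580 and 533 CPM and Lefty1 at 187, 187 and 189 CPM. Tex19.1, a germline gene that restrains retrotransposons, was at 393, 309 and 275 CPM, and Tdrd5, a Tudor gene of the piwi pathway, at 173, 106 and 99.3 CPM. Nanos2, an RNA-binding protein gene that marks male commitment and holds back meiosis, was at 21.6 CPM in WT 1 and 3.74 CPM in WT 2, with 0 counts in WT 3. Dnmt3l, the cofactor of new DNA methylation, was at 2.99 CPM in WT 1 with 0 counts in the other libraries, and was chosen after its values were seen. These weak members were highest in WT 1.

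Nodal signalling, which is transient in fetal male germ cells, was represented by ligand, coreceptor, receptors and inhibitors. Of 23 Nodal and BMP pathway genes, 18 were on, 3 were off and 2 were split. Nodal itself was at 72.7, 67.6 and 27.3 CPM, lowest in WT 3, and Tdgf1, its coreceptor, at 18.3, 16.7 and 23.9 CPM. The BMP receptor gene Bmpr1a was at 194, 190 and 245 CPM, and the signal transducer Smad2 was at 206, 198 and 173 CPM. Of the receptor genes for Nodal, Acvr1b, Acvr2a and Acvr2b were on. Acvr1c and Gdf1 were off. Per length Lefty2 (208 ± 12.2 CPM per kb) was above Lefty1 (107 ± 0.608) and both were above Nodal (26.7 ± 11.9). Nodal and Tdgf1 were chosen after their values were seen.

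Genes of the piwi-interacting RNA (piRNA) pathway, which silences transposons in germ cells, were on in 22 of 26 cases. Kif17, Spocd1 and Tdrd6 were off and Henmt1 was split. Piwil2, which encodes the PIWI protein that loads and amplifies piRNAs in fetal germ cells, was at 271, 240 and 252 CPM. Fkbp6 was at 255, 175 and 178 CPM, and Rnf17, a Tudor domain gene, at 221, 206 and 145 CPM. Piwil4, which encodes the nuclear PIWI protein that directs DNA methylation, was at 10.1, 6.40 and 6.37 CPM, and was chosen after its values were seen. Per length Piwil2 (48.1 ± 2.87 CPM per kb) was far above Piwil4 (1.41 ± 0.394). The summed level of the pathway was 3370 CPM in WT 1, 2529 in WT 2 and 2505 in WT 3. Of the 22 members that were on, 17 were highest in WT 1, 2 in WT 2 and 3 in WT 3, against 32.1%, 31.4% and 36.5% of all symbols that were on.

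Of 38 meiosis genes, 26 (68.4%) were on, 10 were split, and Mei1 and Rad21l were off. By CPM the cohesin genes led the list, with Stag3 at 421, 362 and 341 CPM and Smc1b at 356, 282 and 333 CPM. Syce2, a gene of the synaptonemal complex that joins paired chromosomes, was at 114, 138 and 116 CPM, and Trip13, a meiotic checkpoint ATPase gene, at 97.3, 99.98 and 71.9 CPM. The median of the members that were on was 29.0 CPM against 43.5 CPM for all symbols that were on, but per length it was 9.99 against 9.76 CPM per kb. Stra8, the gene that opens meiosis in response to retinoic acid, was at 2.65 CPM in WT 1 with 0 counts in the other libraries. Prdm9, which places recombination sites, was at 0.982, 2.89 and 0 CPM. Stra8 and Prdm9 were chosen after their values were seen.

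A list of 28 germline genes whose promoters are known to be silenced by DNA methylation in somatic cells had 26 members on (92.9%), none off, and Ctcfl and Dpep3 split. Besides Dazl and Ddx4, its highest members were Stk31 (540, 355 and 300 CPM) and Tex14 (397, 338 and 389 CPM), which encodes a component of the bridges between germ cells. The summed level was 6645, 5411 and 5717 CPM. Of the 26 members that were on, 16 were highest in WT 1, against 32.1% of all symbols that were on. This list shares members with the core, piRNA and meiosis lists.

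The stretch directly upstream of such genes shows the sequence that DNA methylation acts on, the CpG dinucleotide. The 250 bases before the start site are printed below from RefSeq (build GRCm38.p6), 5′ to 3′ on the gene's strand, with each CpG in capitals. The first 4 are germline genes that were on. Prm1, which packs sperm DNA, and Alb, liver albumin, are examples with 0 counts in all 3 libraries. Mael, Sycp3, Prm1 and Alb were chosen after their values were seen.
Dazl chr17:50293621-50293870: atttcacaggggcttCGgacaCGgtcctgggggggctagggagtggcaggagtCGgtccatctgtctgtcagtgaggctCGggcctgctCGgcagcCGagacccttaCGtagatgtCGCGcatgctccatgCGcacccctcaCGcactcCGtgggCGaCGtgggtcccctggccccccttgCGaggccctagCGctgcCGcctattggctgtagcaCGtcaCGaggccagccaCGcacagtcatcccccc
Ddx4 chr13:112652311-112652560: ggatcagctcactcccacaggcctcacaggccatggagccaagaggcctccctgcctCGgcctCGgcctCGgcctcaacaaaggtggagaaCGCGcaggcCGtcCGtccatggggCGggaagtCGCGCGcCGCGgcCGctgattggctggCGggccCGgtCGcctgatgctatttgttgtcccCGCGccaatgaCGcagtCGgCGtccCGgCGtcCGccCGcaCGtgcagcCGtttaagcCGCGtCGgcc
Mael chr1:166238745-166238994: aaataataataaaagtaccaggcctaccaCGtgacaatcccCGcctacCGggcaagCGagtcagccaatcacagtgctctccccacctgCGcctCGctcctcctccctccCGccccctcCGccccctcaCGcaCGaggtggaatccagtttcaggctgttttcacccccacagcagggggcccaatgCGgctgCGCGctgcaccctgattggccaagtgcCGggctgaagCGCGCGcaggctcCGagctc
Sycp3 chr10:88459337-88459586: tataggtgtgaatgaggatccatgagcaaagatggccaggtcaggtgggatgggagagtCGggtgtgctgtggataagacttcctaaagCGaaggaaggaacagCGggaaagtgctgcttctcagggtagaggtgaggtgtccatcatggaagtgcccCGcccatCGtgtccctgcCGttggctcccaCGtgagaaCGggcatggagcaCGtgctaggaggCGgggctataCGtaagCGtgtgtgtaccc
Prm1 chr16:10796824-10797073: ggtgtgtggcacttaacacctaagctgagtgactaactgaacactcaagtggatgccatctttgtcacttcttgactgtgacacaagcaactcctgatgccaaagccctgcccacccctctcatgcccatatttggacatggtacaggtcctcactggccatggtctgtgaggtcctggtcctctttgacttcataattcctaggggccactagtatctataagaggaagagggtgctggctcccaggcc
Alb chr5:90460620-90460869: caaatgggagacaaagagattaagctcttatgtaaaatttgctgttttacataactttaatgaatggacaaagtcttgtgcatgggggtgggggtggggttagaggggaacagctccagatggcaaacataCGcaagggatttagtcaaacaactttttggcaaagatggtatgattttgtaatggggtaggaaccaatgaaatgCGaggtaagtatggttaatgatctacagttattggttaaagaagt
Dazl (strand −) held 20 CpGs in this window, Ddx4 (strand −) 31, Mael (strand −) 18 and Sycp3 (strand +) 12, against 0 for Prm1 (strand −) and 2 for Alb (strand +). Mael, a piRNA pathway gene, was at 169, 98.3 and 89.1 CPM, and Sycp3, of the synaptonemal complex, at 28.7, 18.1 and 34.6 CPM.

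Over all 16302 protein-coding symbols with a RefSeq window, the number of CpGs went with the state of the gene. The median was 17 CpGs for genes that were on, 10 for split genes and 2 for genes that were off. Of the windows with 0 to 2 CpGs, 5.93% belonged to genes that were on (220 of 3709). The share was 24.6% at 3 to 7 CpGs, 61.7% at 8 to 13, 75.5% at 14 to 19 and 79.97% at 20 or more. The spermatid list, with 24 windows, had a median of 2 CpGs, and the list of germline genes under methylation control, with 25 windows, had a median of 15. The letters CACGTG, a palindrome that reads the same on both strands and is known as the E-box bound by MAX and its partners, were in 12 of those 25 windows (48.0%). They were in 7 of 19 piRNA windows (36.8%), in 6 of 30 meiosis windows and in none of the 24 spermatid windows, against 6.76% of all windows and 9.28% of those of genes that were on. Shares above these were not limited to germline lists: the letters were in 10 of 34 Polycomb windows (29.4%), in 7 of 25 windows of oxidation and base repair genes and in 3 of 15 immediate-early windows. Ddx4 and Mael hold these letters 1 time each, Sycp3 2 times and Dazl not at all. A match describes the letters and not a bound site.

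The spermatogonia list holds genes that act in the stem cells of the later testis or in cells derived from them. Of its 29 members, 17 were on (58.6%, against 46.8% of protein-coding symbols), 6 were off and 6 were split. Besides Kit, its highest members were Sall4 (382, 400 and 467 CPM), Etv5 (226, 295 and 332 CPM) and Cdh1, which encodes E-cadherin (298, 257 and 261 CPM). Bcl6b and Dmrtb1 were off. Genes of haploid spermatids, by contrast, were nearly all off or split: 1 of 28 was on (3.57%, against 46.8% of protein-coding symbols), 19 were off and 15 had no count in any library. The member that was on was Klhl10, a ubiquitin ligase adaptor gene, at 60.9, 51.6 and 48.8 CPM. Catsper2, a gene of the sperm calcium channel, was split at 8.49, 11.5 and 0 CPM, and the acrosome genes Acr and Acrv1 had 0 counts. Without WT 3, 5 of the 28 were on.

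**Figure D2:**
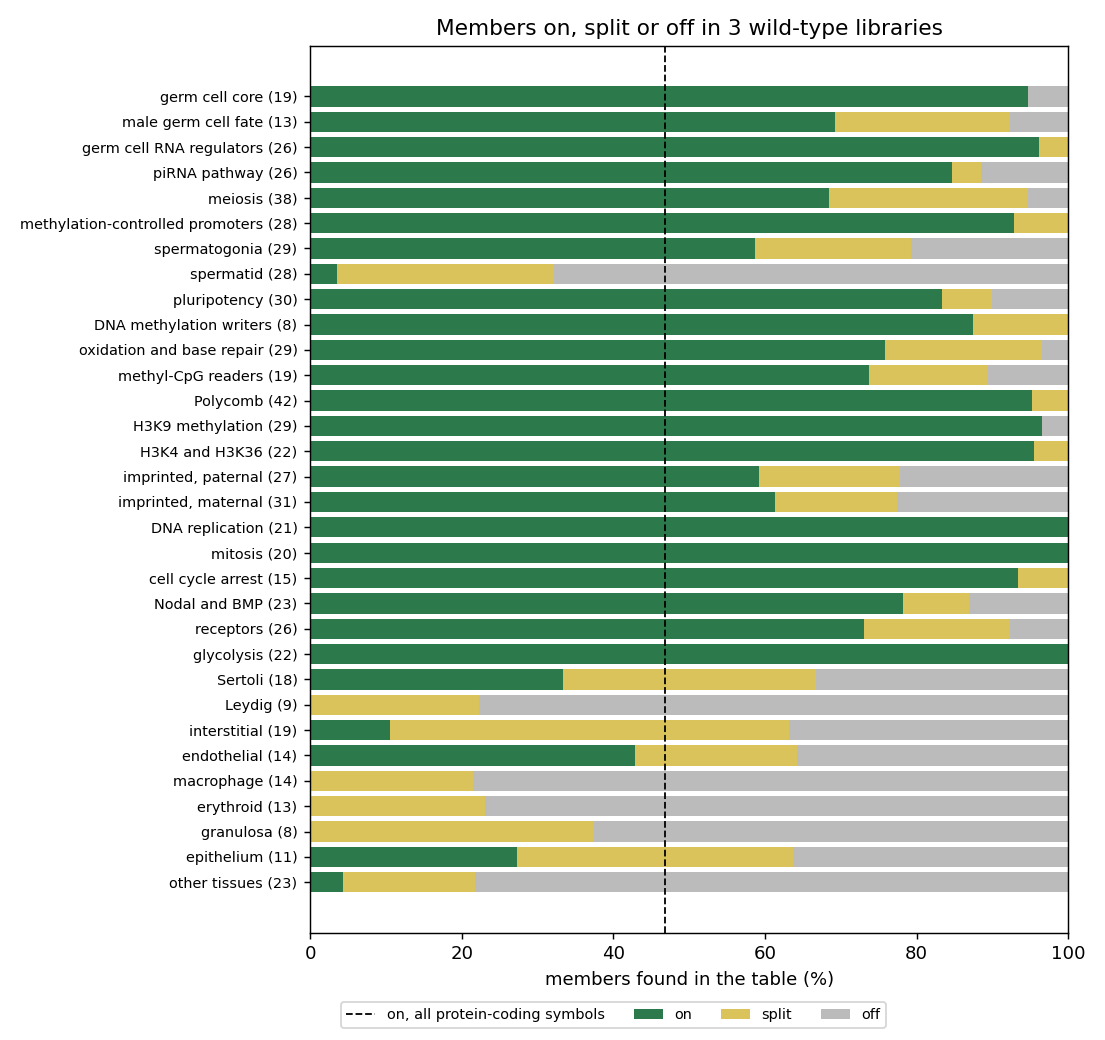
Share of the members of each gene list (members found in the table in brackets) that were on, split or off in the 3 wild-type libraries, with a dashed line at the 46.8% of protein-coding symbols that were on. Germ cell, chromatin and cell cycle lists lie mostly above the line, and spermatid and somatic lists below it.

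In these cells, sorted for an active Pou5f1 reporter, the pluripotency network was largely transcribed. Of its 30 genes, 25 were on (83.3%), 2 were split, and Eras, Tbx3 and Zscan4c were off with no count. Its highest members by CPM were Utf1 (393, 446 and 468 CPM), L1td1 (294, 577 and 413 CPM), Sall4 and Dppa5a (342, 404 and 419 CPM). Sox2, the partner of POU5F1, was at 225, 215 and 251 CPM, and Nanog at 126, 154 and 148 CPM. WT 3 was the highest library for Sox2 and WT 2 for Nanog. Per length the order was Dppa5a (627 ± 66.4 CPM per kb), Utf1 (355 ± 31.6), Pou5f1 (138 ± 11.3), Sox2 (112 ± 9.05) and Nanog (63.6 ± 6.52), in the same order in each library. Klf4, a factor of the naive pluripotent state, was split at 13.99, 6.27 and 0.829 CPM, and Fgf4 was split at 0, 2.27 and 0 CPM. The summed level of the list was 3711 CPM in WT 1, 4166 in WT 2 and 4244 in WT 3. Of the 25 members that were on, 15 were highest in WT 3 and 2 in WT 1. Over all symbols that were on, the shares were 36.5% and 32.1%. Sox2, Nanog, Klf4 and Fgf4 were chosen after their values were seen.

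Among the TET dioxygenases, which oxidise 5-methylcytosine, Tet1 was the main transcript. Tet2 was at 28.6, 17.9 and 30.5 CPM. Tet3 was split at 7.12 CPM in WT 1 and 0.356 CPM in WT 2, with 0 counts in WT 3. Per length Tet1 stood at 38.7 ± 2.11 CPM per kb, Tet2 at 1.52 ± 0.403 and Tet3 at 0.149 ± 0.240, and Tet1 was above Tet2 and Tet2 above Tet3 in each library. Of 29 genes of oxidation and base repair, 22 were on and 6 were split. By CPM the highest besides Tet1 were repair genes, with Parp1 at 867, 1144 and 1196 CPM, Lig1 at 495, 491 and 361 CPM and Apex1 at 287, 292 and 301 CPM. Tdg, the glycosylase that excises oxidised methylcytosine, was at 18.4, 8.41 and 5.76 CPM. Tet2, Tet3 and Tdg were chosen after their values were seen.

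Dnmt1, of the maintenance side of DNA methylation, was higher in each library than Dnmt3a and Dnmt3b, which place new methylation. Of 8 writer genes found, 7 were on and Dnmt3l was split. Dnmt1, which copies methylation at replication, was at 751, 867 and 708 CPM, and Hells, a chromatin remodeller needed for methylation, at 807, 909 and 862 CPM. Uhrf1, which brings DNMT1 to replicated DNA, was at 101, 115 and 124 CPM, and Uhrf2 was at 100.2, 152 and 115 CPM. The de novo enzymes were Dnmt3a at 192, 156 and 127 CPM and Dnmt3b at 25.4, 37.8 and 22.2 CPM. Per length the means were 119 ± 7.07 CPM per kb for Hells, 105 ± 11.1 for Dnmt1, 26.5 ± 2.702 for Uhrf1, 9.50 ± 1.96 for Dnmt3a and 5.58 ± 1.62 for Dnmt3b. The order of these means was the same in each library, and the step from Hells to Dnmt1 was the smallest as a ratio. By CPM, however, Dnmt3a was above Uhrf1 in each library. Their order per length therefore rests on the joined exon lengths. Uhrf1 and Dnmt3b were chosen after their values were seen. Of 19 reader genes of methylated or unmethylated CpGs, 14 were on, with Kdm2a (248, 167 and 304 CPM), Mbd3 (223, 223 and 203 CPM), Kdm2b (233, 232 and 138 CPM) and Cxxc1 (115, 104 and 112 CPM) the highest, and Mbd3l1 and Mbd3l2 were off.

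Chromatin regulators were transcribed almost without gaps. Of 42 Polycomb genes, whose complexes keep developmental genes silent, 40 were on, and Phf1 and Cbx8 were split. Rbbp4 was at 456, 600 and 532 CPM, Jarid2 at 442, 431 and 427 CPM, Rbbp7 at 474, 422 and 325 CPM and Phc1 at 342, 341 and 434 CPM. Of 29 genes of H3K9 methylation, a silencing mark, 28 were on and Kdm4d had 0 counts. Trim28 led it, followed by Atrx (457, 510 and 422 CPM), Cbx5 (442, 430 and 366 CPM) and Smchd1 (388, 409 and 345 CPM). Of 22 genes of H3K4 and H3K36 methylation, marks of active promoters and gene bodies, 21 were on and Prdm9 was split. Kdm5b was at 618, 564 and 513 CPM, Setd5 at 502, 501 and 603 CPM, Whsc1 at 438, 521 and 518 CPM and Ash2l at 398, 390 and 422 CPM.

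Imprinted genes, which are expressed from 1 parental allele in somatic tissue, were on in 35 of 58 cases, and the counts do not separate the alleles. Of 27 paternally expressed genes, 16 were on, 6 were off and 5 were split. Peg3, a zinc finger gene, had the highest CPM of that list at 442, 585 and 514 CPM. Inpp5f was at 79.0, 56.7 and 51.1 CPM, Mest at 35.98, 49.1 and 23.3 CPM and Slc38a4 at 26.7, 31.8 and 23.5 CPM. Airn and Magel2 were off, and Snrpn and the Snurf gene that overlaps it were both listed at 0 in each library, as can happen to overlapping genes depending on how reads are assigned, which the sources used here do not give. Of 31 maternally expressed genes, 19 were on, 7 were off and 5 were split. Nap1l4 (374, 363 and 314 CPM), Igf2r (235, 257 and 199 CPM), Copg2 (267, 214 and 194 CPM) and Ube3a (142, 131 and 188 CPM) led that list, and Calcr and Kcnk9 were off. The neighbours H19 and Igf2 were both on: H19, a non-coding RNA, was at 46.3, 50.9 and 50.4 CPM and Igf2, a growth factor, at 5.69, 4.76 and 7.20 CPM. Per length H19 (20.01 ± 1.02 CPM per kb) was above Igf2 (1.03 ± 0.215) in each library. Snrpn, Snurf, H19 and Igf2 were chosen after their values were seen.

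Genes of the dividing cell were all on, and so were nearly all genes of arrest. All 21 replication genes and all 20 mitosis genes were on, and 14 of 15 arrest genes were on with Cdkn2b split. Mcm2, of the replicative helicase, was at 616, 856 and 842 CPM, Top2a, which untangles chromosomes, at 1449, 1658 and 1540 CPM, and Mki67 at 719, 863 and 873 CPM. Cenpf, a kinetochore gene, was at 1249, 1070 and 983 CPM. Rb1, the retinoblastoma gene that restrains S phase entry, was at 127, 108 and 116 CPM, and Cdkn1c, an inhibitor of cyclin-dependent kinases, at 81.8, 41.4 and 59.8 CPM. Per length Mcm2 (111 ± 19.4 CPM per kb) was above Rb1 (19.5 ± 1.60) and Cdkn1c (29.9 ± 9.92) in each library. The summed replication level was 4294 CPM in WT 1, 5837 in WT 2 and 5073 in WT 3. Of its 21 members, 16 were highest in WT 2 and none in WT 1. Over all symbols that were on, the shares were 31.4% and 32.1%. The labels give no cell cycle state, and levels in a bulk library do not show whether the same cells carried both sets.

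Receptor and metabolism genes were mostly on, and transcript levels do not show which signals or fuels the cells used. Of 26 receptor genes, 19 were on, 5 were split, and Fgfr4 and Rarb were off. After Kit, the highest were Notch3 (461, 339 and 369 CPM), Ptch1, the Hedgehog receptor gene (232, 180 and 212 CPM), and Notch2 (151, 147 and 174 CPM). All 22 glycolysis genes were on, with Pkm at 1464, 1849 and 1400 CPM and Aldoa at 406, 570 and 459 CPM. Of 13 mitochondrially encoded protein genes, 8 were on and held 1.19% of the counts in WT 1, 1.44% in WT 2 and 1.77% in WT 3. Of these 8, 7 were highest in WT 3, against 36.5% of all symbols that were on. The other 5 of the 13, COX2, COX3, ATP6, ATP8 and ND4L, were listed at 0 in each library. Their products belong to the same respiratory chain as that of COX1, and these values are given as listed and not as absence.

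The sex chromosomes matched the label male. Of 11 Y-linked genes, 6 were on, and the list had a summed level of 389, 400 and 406 CPM. These 6 are all that were on among 102 Y-linked protein-coding symbols (5.88%), so that share is no separate comparison. Eif2s3y, a translation factor gene on the Y, was at 143, 164 and 158 CPM and Uba1y at 144, 127 and 160 CPM. Sry, the testis-determining gene of Sertoli precursors, and Rbmy were off. Xist, the RNA that coats the inactive X in female cells, was split at 3.44, 2.58 and 0.174 CPM, and was chosen after its values were seen. On the X, 323 of 928 protein-coding symbols were on (34.8%), against 47.6% on the autosomes. The medians of the genes that were on were 7.93 CPM per kb on the X and 9.93 CPM per kb on the autosomes.

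Markers of somatic cells were mostly off or split: 18 of 129 were on (13.95%, against 46.8% of protein-coding symbols), 73 were off, and 55 had no count in any library. In bulk samples, fewer cells of a type and less RNA per cell cannot be told apart. The markers of Sertoli cells, the supporting cells of the testis, were higher in WT 3 than in the other libraries. Of 18 such genes, 6 were on, 6 were off and 6 were split, and their summed level was 33.9 CPM in WT 1, 29.1 in WT 2 and 189.6 in WT 3. Amh, the hormone that removes the Müllerian duct, was at 8.98, 5.65 and 59.3 CPM. Aard was at 5.40, 9.47 and 41.4 CPM, Clu at 6.82, 3.56 and 34.4 CPM, and Wt1, a transcription factor gene of Sertoli and other gonadal somatic cells, at 4.22, 1.38 and 20.4 CPM. Of the 6 members that were on, 5 were highest in WT 3, against 36.5% of all symbols that were on. Of the markers that define the type, Sox9 had 0 counts in all 3 libraries, and Dhh was split at 0.638, 0.356 and 12.1 CPM. The part of Sertoli RNA in the other differences between WT 3 and the rest was not tested.

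Of the other somatic lists, the sums of the macrophage, erythroid and granulosa lists were also highest in WT 3, at 22.1 CPM or less. The genes named in this paragraph at 0 counts, and Cdh5, are the defining markers of their lists. No Leydig gene was on, with sums of 5.84, 4.36 and 0 CPM: the steroid genes Cyp11a1 and Cyp11b1 were off and Insl3 had 0 counts. No macrophage gene was on (sums of 3.48, 4.14 and 6.32 CPM), and Csf1r, Ptprc and Adgre1 had 0 counts in each library. No erythroid gene was on (1.96, 0.445 and 13.4 CPM), with Hbb-bs, an adult beta globin gene, at 0, 0 and 7.50 CPM and Hba-a1 at 0. No granulosa gene was on (8.20, 5.78 and 22.1 CPM), and Foxl2, which defines these ovarian cells, had 0 counts. The interstitial list had 2 of 19 genes on, Sparc (15.2, 35.001 and 39.7 CPM) and Col3a1 (2.01, 1.42 and 4.14 CPM), with sums of 54.2, 58.5 and 49.8 CPM. It had 5 genes on without WT 3. The endothelial list had 6 of 14 genes on, and Pecam1, an adhesion gene also known from fetal germ cells, made most of its sum at 155, 212 and 186 CPM, while Cdh5 was at 2.16, 1.82 and 3.75 CPM. Surface epithelium had 3 of 11 genes on, led by Krt18 (14.3, 17.9 and 3.05 CPM). Of 23 markers of unrelated tissues, 1 was on, the eye and brain gene Pax6, at 2.21, 10.7 and 8.90 CPM, and 18 were off, among them Actc1 and Afp.

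**Figure D3:**
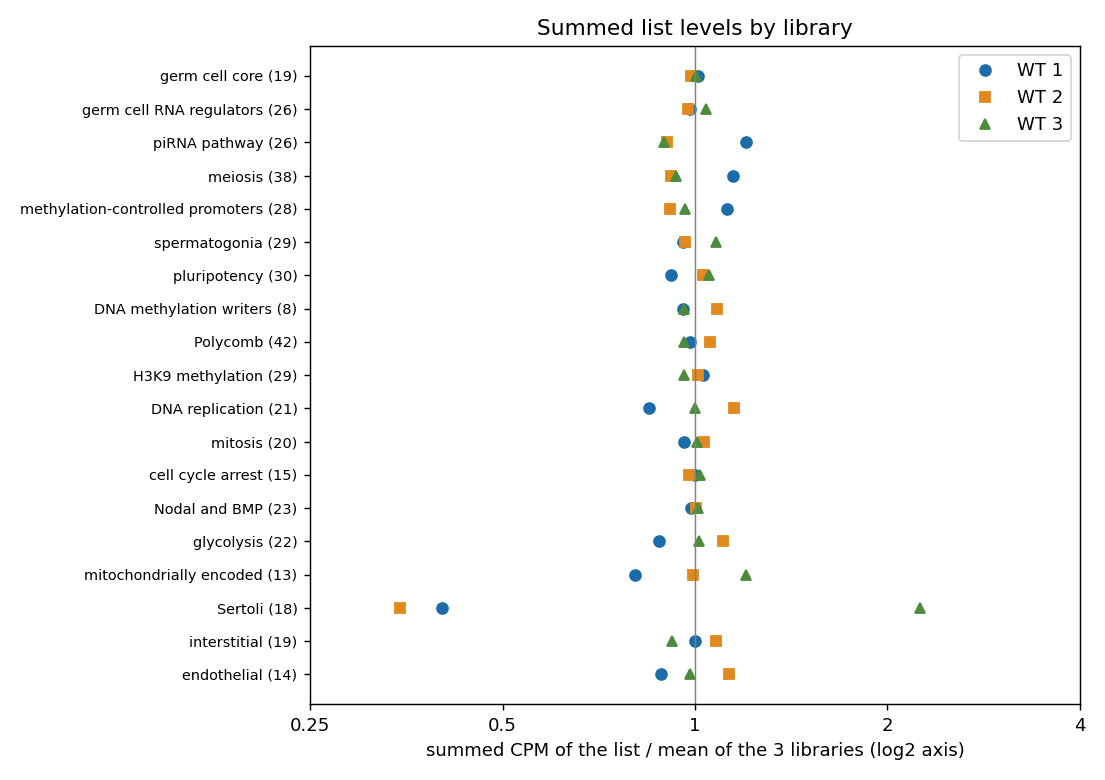
Summed CPM of each list in each wild-type library, divided by the mean of the 3 libraries (log2 axis), with the number of genes in brackets. Germ cell, chromatin and mitosis lists lie close to 1, the piRNA list is highest in WT 1, the replication list in WT 2, and the Sertoli list in WT 3 (189.6 CPM against 33.9 and 29.1 CPM).

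The 3 libraries agreed closely for well expressed genes and poorly for weak ones. Across all 35976 symbols, Pearson's r of log2(CPM + 1) was 0.981 for WT 1 and WT 2, 0.958 for WT 1 and WT 3 and 0.961 for WT 2 and WT 3. These are correlations across genes, which are not independent replicates and share the libraries, and they describe agreement only. Across the genes that were on, they were 0.960, 0.915 and 0.922. Of 9202 genes with a mean of at least 8 CPM, 468 (5.09%) differed more than 2-fold between WT 1 and WT 2, 1383 (15.03%) between WT 1 and WT 3, and 1252 (13.6%) between WT 2 and WT 3. Both pairs with WT 3 therefore agreed less than the pair without it. No pair was a library deposited more than once: a chi-square of counts averaged 42.5, 93.8 and 83.8 per gene for the 3 pairs, where equal libraries would average about 1.

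**Figure D4:**
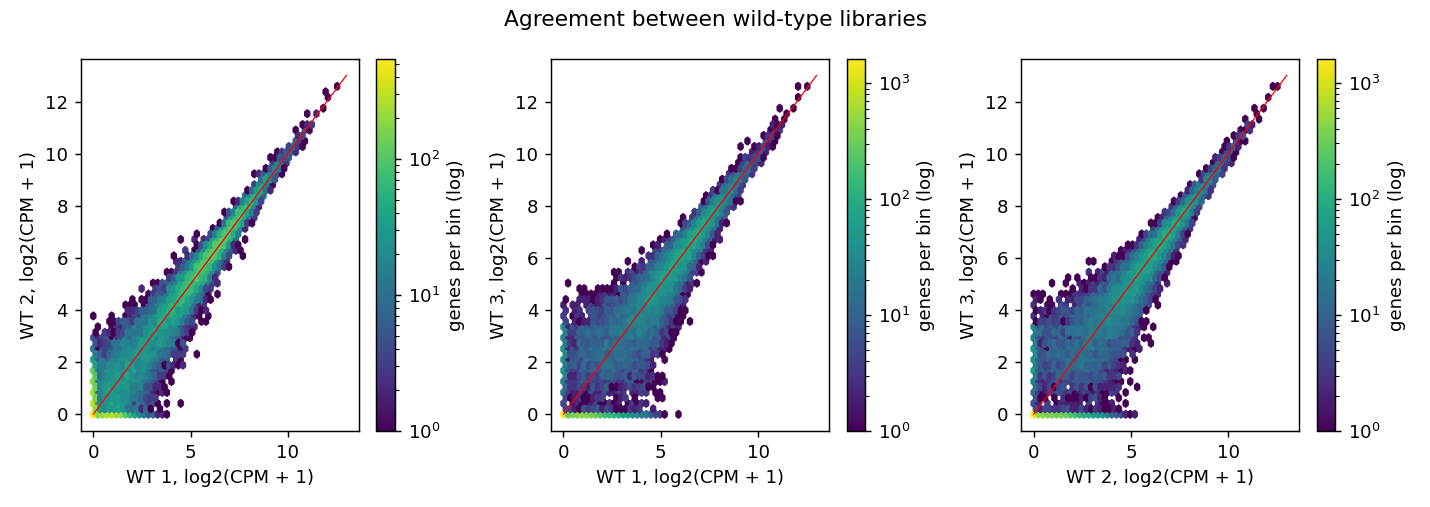
Levels of all symbols in each pair of wild-type libraries as log2(CPM + 1), with colour for the number of genes per bin (log scale) and a red line of equal levels. The clouds narrow toward high levels, and both pairs with WT 3 carry more genes at 0 in WT 3 than the pair of WT 1 and WT 2 does in either library.

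The disagreement depended on level. Between WT 1 and WT 2, 36.7% of genes at 1 to 4 CPM differed over 2-fold, and 0.434% at 64 to 256 CPM. Between WT 1 and WT 3 the shares were 73.7% and 2.64%, and between WT 2 and WT 3 they were 72.1% and 1.80%. The highest library was a median of 1.52 times the lowest over all genes that were on, of which 2808 (27.3%) differed over 2-fold, 1.26 times over genes of at least 100 CPM and 1.12 times over genes of at least 1000 CPM. The common biological coefficient of variation, edgeR's measure of the spread between replicates relative to the mean, was 0.381 over 10580 genes. Its trend fell from 0.642 at 1 to 4 CPM to 0.188 at 64 to 256 CPM and 0.133 above 1024 CPM. Dazl, Ddx4, Dnmt1 and Tet1 therefore lie where the libraries agree, and Nanos2, Tet3, Stra8 and Dnmt3l where they do not.

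**Figure D5:**
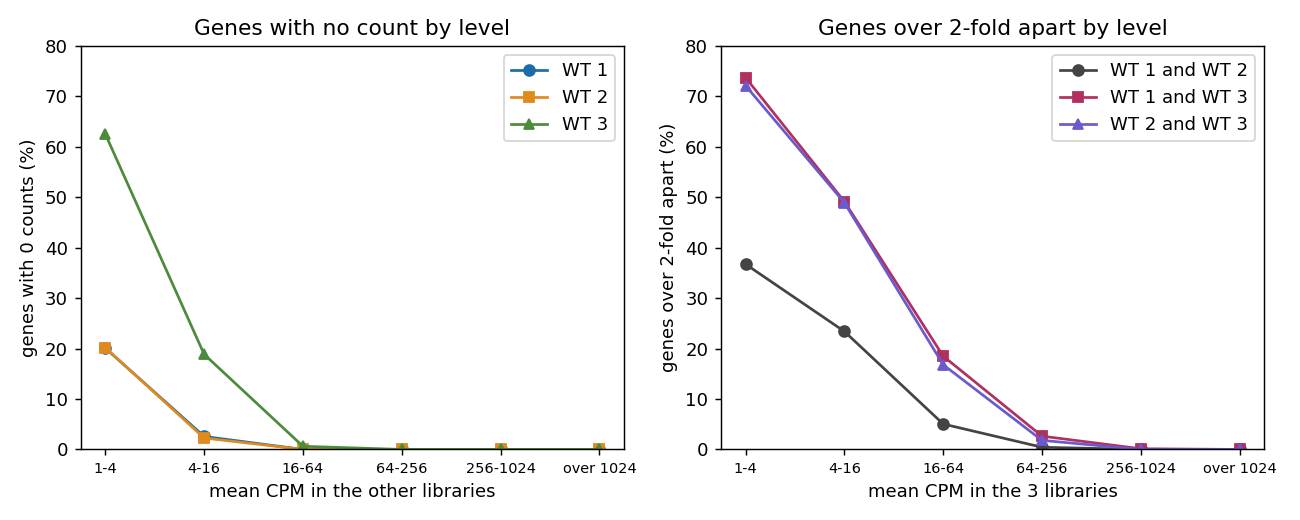
Left, percent of genes with 0 counts in a wild-type library, by the mean CPM in the other libraries. Right, percent of genes over 2-fold apart in each pair, by mean CPM. In WT 3, 62.5% of genes at 1 to 4 CPM had no count, against 20.1% in WT 1 and 20.2% in WT 2.

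In WT 3 weak genes were either missing or present with many counts. It had 196 symbols with 1 to 10 counts, against 930 in WT 1 and 1287 in WT 2. Symbols found in that library alone numbered 254 in WT 3 with a median of 71.5 counts, against 1407 with a median of 18 in WT 1 and 1444 with a median of 15 in WT 2. Of genes averaging at least 8 CPM in the other libraries, 174 of 9254 (1.88%) had 0 counts in WT 3, 6 of 9111 in WT 1 and 5 of 9212 in WT 2. The highest of them in WT 3 was Mrc2, a collagen receptor gene, at 56.2 and 30.0 CPM in WT 1 and WT 2, next to Fgfr3, a fibroblast growth factor receptor gene, at 19.5 and 33.9 CPM. Hlcs, Nhp2l1 and Rragd followed. Leaving out gene models, the highest genes at 0 in WT 1 were Tmem184a (11.6 CPM in the mean of the others), Mup6, Tgfbr2, Mme and Ephx2. In WT 2 they were Zfp607 (9.79 CPM in the mean of the others), Akr1b8, Sel1l3, Ccdc30 and Rasal1. With gene models included, no symbol at 0 in WT 1 or WT 2 was above 12.8 CPM in the mean of the others. The number of molecules behind these counts is unknown, because the counts carry no molecular identifiers.

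Single genes of at least 8 CPM in mean also set the libraries apart. In WT 3 the highest ratios over the other libraries were those of Inhbb, an inhibin subunit gene also known from Sertoli cells (0.245, 0.978 and 32.4 CPM), Col14a1, a collagen gene (0.933, 1.82 and 23.6 CPM), Kctd14, Cdnf and Gatm. In WT 1 they were those of Mfap4, a gene of the extracellular matrix (36.3, 4.22 and 1.26 CPM), Nanos2, Gli1, a target and effector of Hedgehog signalling (24.4, 4.54 and 0 CPM), Tmem38a and Tmem130. In WT 2 they were those of Epb41l1, Pla2g4e (13.7, 42.5 and 4.45 CPM), Caskin2, Fam101a and Nek3. The lowest ratios in WT 1 were those of Inhbb, Nova1, Aldh1a1, Shc4 and Fbxo48, in WT 2 those of Pak3, Kctd14, Ndrg4, Inhbb and Cdnf, and in WT 3 those of Mrc2, Spr, Fgfr3, Hlcs and Nhp2l1. The highest mean among the genes of this paragraph was 28.8 CPM, for Mrc2.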

How the data were processed

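The authors deposited raw whole-number read counts per gene symbol, with no normalization, in 1 table of 35976 symbols. The submitters' processing notes list STAR 2.7.10b and featureCounts 2.0.3, beside FastQC, Trim Galore 0.6.7 and SAMtools 1.9. Of 2 genome builds in the notes, mm10 and GRCm39, neither has a stated role. Which annotation and strand setting were used, and how shared reads were treated, is not given in these sources, so overlapping, antisense and near-identical genes cannot be told apart in these counts. The table has 1 further column that names no sample, which was not used. A WT sample in the labels with no column was not analysed here, although the design had counted it in.

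Counts of the 3 WT libraries were scaled by TMM (edgeR 4.0.16 in R 4.3.3) and summarised with pandas 2.3.3 in Python 3.11.15. The threshold for on was 1 CPM in each library. Exon lengths (union of exons) came from GENCODE vM21 by symbol, for 27313 symbols, and those of mitochondrial genes from RefSeq. RefSeq gave the gene class for 33506 symbols and the upstream windows, of which the first listed per symbol was used. The spread was taken from edgeR's dispersion with a mean as the only term, after its default filter on low counts, and was tested on simulated data. No test between groups was made.

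The members and the 37 gene lists, with 709 of 714 symbols found, were chosen with earlier results of these data known. Genes were named by a rule. It takes the 4 markers, the 25 highest genes by CPM and the 15 highest by CPM per kb. From each list it takes the 4 highest members by mean CPM and the first 2 off members in alphabetical order. For each library it takes 5 genes at 0 counts there with the highest level elsewhere, and the 5 highest and 5 lowest ratios among genes of at least 8 CPM in mean. Predicted gene models and unnamed symbols were not named, and some items that the rule takes are not reported here. Alternatives were RLE scaling, plain CPM, thresholds of 0.5 and 5 CPM, proportional scaling of counts to the lowest total, and other filters. A pseudocount of 0.1 CPM, DESeq2 1.42.0 for the dispersion, and leaving out each library were also used.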

Additional observations from a re-analysis of the deposited data

How the results depend on the processing

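The numbers of genes on and off, and of list members on, stayed within 1.5 times of the values given at the other thresholds. RLE scaling and plain CPM could not change them, because 1 CPM fell at the same whole count in each library. Scaling to the lowest total was proportional, with no random draw, so it could change calls only by rounding. Genes on numbered 10541 at 0.5 CPM and 8835 at 5 CPM, and 10497 to 11592 when a library was left out. List members on ran from 415 at 5 CPM to 493 without WT 3, against 464. The first 100 genes held 13.8% of the counts without mitochondrially encoded genes, against 14.504% with them. Of the 25 genes highest by CPM, 13 stayed among the first 25 per kilobase. The coefficient of variation, 0.381, was 1.13 with no filter, 0.354 over genes of at least 8 CPM, 0.219 as DESeq2's median over genes, and 0.322 to 0.434 when a library was left out, lowest without WT 3. The cause was not tested. Among single lists, 4 of 37 moved without WT 3, 2 without WT 1 and 2 without WT 2, 5 at 5 CPM and 1 at 0.5 CPM. At 5 CPM, members on numbered 2 for Sertoli, 3 for endothelial, 1 for interstitial and 0 for epithelium and other tissues, and without WT 3 they numbered 1 for Leydig and 1 for granulosa. The lowest correlation between libraries was 0.929 with a pseudocount of 0.1 CPM. No paired analysis was possible because a single group was described. With 3 libraries that may be technical repeats, levels under about 16 CPM are poorly determined. At 4 to 16 CPM, 23.4% of genes differed over 2-fold between WT 1 and WT 2. The shares were 49.1% between WT 1 and WT 3 and 48.9% between WT 2 and WT 3.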

Other observations

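Gene families grouped by symbol ranged from none on to almost all on, against a share of 46.8% on over all protein-coding symbols. Of 39 Hox genes, which pattern the body axis, none was on by the 1 CPM rule, 34 were off and 5 were split. None of 1124 olfactory receptor symbols, 337 vomeronasal receptor symbols or 43 beta-defensin symbols was on, and none of 6 Gata genes. By contrast, 265 of 346 numbered zinc finger genes (Zfp) were on (76.6%), led by Zfp106 at 635, 647 and 633 CPM, and 82 of 84 cytosolic ribosomal protein genes were on and held 3.88%, 3.81% and 4.21% of the counts. Of the ligand families Wnt, Fgf and the chemokines, few members were on: 1 of 19 Wnt genes was on, Wnt3, at 140, 106 and 103 CPM, and 1 of 22 Fgf genes, Fgf8, at 9.33, 7.29 and 5.36 CPM, and 3 of 37 chemokine genes. Among 13 Tbx genes, Tbx4 alone was on, at 35.6, 66.0 and 73.8 CPM.

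Some genes that are widely expressed elsewhere were off or split. Myc, the growth regulator of dividing cells, was off at 0.0982, 0.267 and 0 CPM, while its relatives Mycn (210, 242 and 253 CPM) and Mycl (71.1, 90.8 and 54.2 CPM) were on. B2m, the light chain of class I major histocompatibility complexes, was split at 3.53, 0.801 and 11.2 CPM, and was the member of 13 housekeeping genes that was not on. Fos, an immediate-early gene, was at 9.91, 5.60 and 42.2 CPM, highest in WT 3, while Jund was at 342, 285 and 250 CPM, highest in WT 1. Of 69 replication-dependent histone symbols 1 was on, Hist2h2be (1.77, 5.34 and 3.58 CPM), in libraries made by oligo-dT capture, and most of these mRNAs are known to lack a poly(A) tail. Gas5 (135, 182 and 192 CPM) and Malat1 (166, 185 and 148 CPM) were the highest named long non-coding RNAs. Except for Fos and Jund, the genes of both paragraphs were chosen after their values were seen.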
